A study of Homo sapiens with 12 samples.

Results

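U-937 cells exposed to all-trans retinoic acid (ATRA) together with Corin carried dimethylation of lysine 4 of histone H3 (H3K4me2) at many places where vehicle-treated cells had no called peak. The comparison set the deposited peak list of cells given ATRA and Corin, each at 0.1 μM for 24 hours, against the list of cells given the solvent DMSO for 24 hours. Overlapping peaks of the 2 lists were merged into 84063 regions. A region with a peak of the combination only was called gained, 1 with a DMSO peak only lost, and 1 with peaks of both lists shared. Of the 84063 regions, 30317 were gained, which is 36.1% of all regions (95% Wilson interval 35.7 to 36.4%), and 4229 were lost, which is 5.03% (4.89 to 5.18%). The other 49517 regions were shared, and they covered a median of 1062 bp in the DMSO list and 1427 bp in the combination list. These intervals cover counting error only.

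U-937 is a human monocytic line that the labels class as acute myeloid leukaemia (AML), so every group comes from 1 line and none is a patient sample. The whole series holds 12 libraries, 2 of H3K4me2 and 1 of input DNA for each of DMSO, ATRA at 0.1 μM, Corin at 0.1 μM and the combination, all collected at 24 hours, and 6 of them belong to the groups compared. Each treatment is represented by 1 peak list, and that list, named as a set of peaks reproducible by overlap, stands for its libraries together. No difference between treatments could therefore be set against a spread between replicates, and no p-value is given. A peak says that the mark was enriched in the bulk culture, so more cells carrying it and more of it per cell cannot be told apart.

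H3K4me2 is found at active promoters and, away from them, at enhancers, including enhancers that are poised and not yet active. The enzyme LSD1 (KDM1A) removes methyl groups from mono- and dimethylated lysine 4, and it works inside the CoREST complex beside the histone deacetylases HDAC1 and HDAC2. Corin is a dual inhibitor built to act on the LSD1 and the deacetylase parts of that complex. ATRA is the ligand of the retinoic acid receptors, which pair with retinoid X receptors on DNA and bind direct repeats of the hexamer AGGTCA or its variant AGTTCA, classically with a spacer of 5 bases. In myeloid leukaemia cells ATRA is known as an inducer of differentiation.

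Receptor-type repeats with a spacer of 5 bases were rare but present in gained regions. Both strands of the 300 bp around each peak summit were searched for AGGTCA or AGTTCA followed, after 5 bases, by AGGTCA or AGTTCA. The repeat was found in 27 of 30317 gained windows (0.0891%) and in 8 of 49517 shared windows (0.0162%). Of the gained regions that also lay under a peak of ATRA alone but under none of Corin alone, 11 of 3625 held it (0.303%), against 5 of 7816 under a Corin peak only and 8 of 13797 under neither. RefSeq promoters of the same length held it in 7 of 34961. With a spacer of 2 bases the same hexamers, which Alu repeats of primate genomes are known to carry, matched 2.04% of gained and 1.55% of shared windows, both over 1 kb from a start site. Of the gained windows with the repeat and a −log10 q of at least 10, 6 are shown. In them both hexamers of this receptor element can be read. Part of the genome was left out of this choice, so other windows may meet the same limits. The 6 windows come from hg38. They are written 5′ to 3′ on the strand on which the repeat reads as given, with its hexamers in capitals.
near FCRL4: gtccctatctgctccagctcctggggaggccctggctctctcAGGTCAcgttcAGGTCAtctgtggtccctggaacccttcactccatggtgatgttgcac
near CYP26A1: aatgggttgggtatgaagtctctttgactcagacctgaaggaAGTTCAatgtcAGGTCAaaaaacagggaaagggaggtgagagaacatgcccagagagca
AAK1 intron: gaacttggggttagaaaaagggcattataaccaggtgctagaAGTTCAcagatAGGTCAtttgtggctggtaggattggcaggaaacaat
ACACA intron: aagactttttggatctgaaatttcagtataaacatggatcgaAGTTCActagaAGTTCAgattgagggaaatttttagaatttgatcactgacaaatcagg
DRAIC start: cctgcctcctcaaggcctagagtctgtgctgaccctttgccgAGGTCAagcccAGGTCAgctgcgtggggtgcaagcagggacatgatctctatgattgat
NAV1 intron: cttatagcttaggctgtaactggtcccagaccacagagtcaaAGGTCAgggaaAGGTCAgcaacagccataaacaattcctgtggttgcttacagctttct
The window near FCRL4, a B-cell receptor gene, is chr1:157624560-157624660 on the plus strand, outside genes and 26359 bp from that start site. The window near CYP26A1, which encodes the retinoic acid-degrading hydroxylase, is chr10:93150398-93150498 on the minus strand, outside genes and 76274 bp from that start site. The AAK1 window, in an intron of a kinase of clathrin coats, is chr2:69616826-69616915 on the minus strand. The ACACA window, in an intron of the gene of acetyl-CoA carboxylase, is chr17:37397676-37397776 on the minus strand. The DRAIC window, at a start of that long non-coding RNA, is chr15:69670339-69670439 on the minus strand. The NAV1 window, in an intron of a gene of a microtubule-binding protein, is chr1:201620116-201620216 on the plus strand.

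The gained region near FCRL4 had the highest −log10 q of the 6, 25.4, and a width of 391 bp, of which an ATRA peak covered 207 bp and no Corin peak any. The region near CYP26A1 was 1149 bp wide with a −log10 q of 17.6, and 778 bp of it lay under an ATRA peak and none under a Corin peak. In NAV1, 830 of 964 bp lay under an ATRA peak and 354 bp under a Corin peak. The regions of AAK1 and DRAIC had no ATRA peak and had 288 bp and 677 bp under Corin peaks. In all, 4 of the 6 regions shown were also marked with ATRA alone, a count that describes these 6 only. A match of letters is a description of the window and not a measured binding site.

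Markers fixed for cell types fitted the label in part. Of 10 monocytic marker genes, 9 had a peak within 1 kb of their canonical start site in both lists, with MPO, the myeloperoxidase gene, lacking. Within that distance 1 of 5 erythroid and 0 of 4 epithelial markers had one. Peaks were also present within that distance at 2 of 5 T-cell and 3 of 5 B-cell markers, the same number in both lists. The combination list was the longer, with 83969 peaks over 109 Mb against 65172 peaks over 73.4 Mb. From the fold and p-value printed for each peak, the fragments behind it could be solved for 100% of the peaks tried in either list. The lowest background in the combination was 1.13 times that of DMSO on the input scale and 1.20 times on the scale of H3K4me2 fragments, and the median summit held 45 fragments against 39. With the combination scaled to the DMSO input depth and peaks of −log10 p of at least 5 kept in both lists (called equal input depth here), 20130 regions were gained and 3520 lost. That cutoff without scaling left 71192 combination and 55617 DMSO peaks, and the scaling left 67535 combination peaks. Falls in counts in this setting are therefore not those of depth alone. With the combination list cut to the number of DMSO peaks, 15018 were gained and 7140 lost. Deeper libraries give longer lists and wider peaks, and the part of depth beyond these settings was not tested. In both settings peaks were dropped but kept their deposited edges, so the part of depth in peak width was not tested either.

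Gained regions were short, mostly intronic, and weaker than shared ones. Their median width was 370 bp (quartiles 244 and 604 bp), and together they covered 14.7 Mb. The median −log10 q, the strength that the authors' peak caller gave, was 4.34 in gained regions and 34.4 in shared regions, both in the combination list. In lost regions it was 3.18 in the DMSO list. A −log10 q of at least 5, called strong here, was reached by 12450 gained regions (41.1%) and by 1033 lost regions (24.4%). Only 5.26% of gained regions lay within 1 kb of an annotated start site, against 9.81% of lost and 35.6% of shared regions. Introns held 56.9% of the gained regions, 52.1% of the lost and 31.8% of the shared. Another 31.0% of the gained regions lay outside genes.

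Gained regions mostly lay near marks already present. Their median distance to the nearest DMSO peak was 3809 bp, with 26.5% within 1 kb, 55.4% within 5 kb and 91.9% within 50 kb. Strong gained regions lay farther away, at a median of 5013 bp to the nearest DMSO peak. Lost regions lay at a median of 1767 bp from a combination peak, and 42.1% were within 1 kb of it. Many gained regions came in rows. With no other region between neighbours and gaps of at most 20 kb, 15764 of them (52.0%) fell into 6128 runs of 2 or more, and 334 runs held 5 or more.

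The DNA under gained summits was poorer in CpG than that under shared ones. Median GC content in the 300 bp window was 46.0% in gained, 52.3% in lost and 51.3% in shared regions, or 49.7% in shared regions over 1 kb from a start site. Over 1 kb from a start site, at least 10 CpG were present in 3.92% of gained and 12.3% of shared windows, and the motif shares that follow are for such distal windows. The motif of the myeloid factor PU.1 (GAGGAA followed by GT) matched 4.57% of gained and 3.83% of shared windows. That of AP-1, the FOS and JUN dimer (TGANTCA), matched 11.1% of gained and 11.3% of shared windows. The core of the insulator protein CTCF (AGGGGGC) matched 4.14% of gained, 8.21% of lost and 6.99% of shared windows. Among all gained windows, distal or not, the AP-1 motif matched 13.5% of those under a Corin peak only and 9.57% of those under an ATRA peak only, and PU.1 matched 3.98% and 5.77%. The runt motif of RUNX factors (TGTGGT followed by TT) matched 3.30% of gained and 3.54% of shared distal windows. All promoters of the same length held AP-1 in 7.68%, PU.1 in 2.59%, the RUNX motif in 1.53% and the CTCF core in 14.4%.

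Gained regions were marked more often in the list of Corin alone, which had 73997 peaks, than in that of ATRA alone, which had 66385. A Corin peak overlapped 42.5% of gained regions, an ATRA peak 28.7%, both of them 16.8%, and neither 45.5%, which is 13797 regions. Among strong gained regions the shares were 61.5% for Corin, 43.2% for ATRA and 25.7% for neither. Weak gained regions had neither in 59.3%. Against the same DMSO list, ATRA alone gained 13459 regions and lost 6451, and Corin alone gained 19477 and lost 6072. All of these comparisons share the DMSO list, so their counts are not independent.

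Among the strongest gained regions after the first 3 in rank, all of those placed 4 to 10 had a Corin peak and only 2 had an ATRA peak. A region of 1820 bp in an intron of PPARD, the lipid-sensing nuclear receptor PPARδ, had a −log10 q of 92.7 and no DMSO peak, with 1664 bp under Corin alone. The region at CRTC3, a CREB coactivator, overlapped an exon, was 1399 bp wide and had 1193 bp under Corin. An intronic region of ITGA6, the laminin-binding integrin α6, was 1551 bp wide, with 1058 bp under Corin. At CTCFL, the germline paralog of CTCF, 1141 of 1149 bp were under Corin, and at MAP3K20, a stress kinase, 1260 of 1290 bp. The region in KCTD1 was under both drugs, with 395 bp for ATRA and 909 bp for Corin. The region of rank 10 was intronic, on chromosome 16 and 1484 bp from a start of the non-coding RNA gene ENSG00000260953, 462 bp wide and again under both drugs.

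The lost regions of rank 4 to 8 were of −log10 q 25.6 to 30.5 and 218 to 949 bp wide. A DMSO peak of 237 bp lay 389 bp from a start site of TPSAB1, a mast-cell tryptase gene, and Corin alone still had 231 bp there while ATRA alone had none. In an intron of BAHCC1, 949 bp were marked in DMSO, 310 bp with ATRA and none with Corin. The region near PDCD6IP-DT, a non-coding RNA gene, kept 253 of 263 bp with ATRA and 214 bp with Corin. Near GNB1, a G-protein β subunit gene, 268 of 612 bp were under ATRA and 438 bp under Corin. At NOTCH2NLA the whole 218 bp lay under an ATRA peak, but this gene has near-identical copies, so its reads may be split among them. Of all lost regions, 37.5% had an ATRA peak and 32.3% a Corin peak.

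Gained regions were collected by a minority of genes. A gene window was the body of a protein-coding gene plus 5 kb upstream, and 62.0% of gained regions lay in at least 1 of the 19951 windows. At least 1 gained region was present in 8144 windows (40.8%), at least 3 in 2591 (13.0%), at least 5 in 1095 (5.49%), at least 10 in 210 and at least 20 in 22. At least 1 lost region was present in 2188 windows (11.0%). The 1095 genes with at least 5 held 26.8% of all gained regions. Those genes were long, with a median window of 152 kb against 50.9 kb for genes with 1 to 4 and 20.8 kb for genes with none. They were also already marked, with a median of 6 DMSO regions against 2 and 1, and only 6 of the 1095 had none. Across genes, the Spearman correlation of the gained count was 0.457 with window length and 0.499 with the number of DMSO regions, and longer windows hold more of both. How far length alone gives the counts was not tested. The count of genes with at least 3 gained regions was 784 when only strong gained peaks were used and 5930 when the window was 50 kb either side of the start. Of the 12 genes with the most gained regions, 12 were among the first 50 at equal input depth and 5 with the 50 kb window.

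The places of the gained regions also varied with that count. In genes with at least 10 gained regions, 91.5% of these were intronic, at a median of 54.6 kb downstream of the start, against 72.7% and 8.52 kb in genes with 1 to 4. The share of strong regions differed little between these groups, at 38.4% and 39.3%. Shared regions were wider where more regions were gained. The median gene-wise width ratio of combination to DMSO was 1.16 in genes with no gained region, 1.26 with 1 to 4, 1.38 with 5 to 9 and 1.44 with 10 or more. These groups were not split by place, and over all shared regions the ratio was 1.37 in introns and 1.18 near start sites. How far place or gene length gives these differences was not tested.

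**Figure D1:**
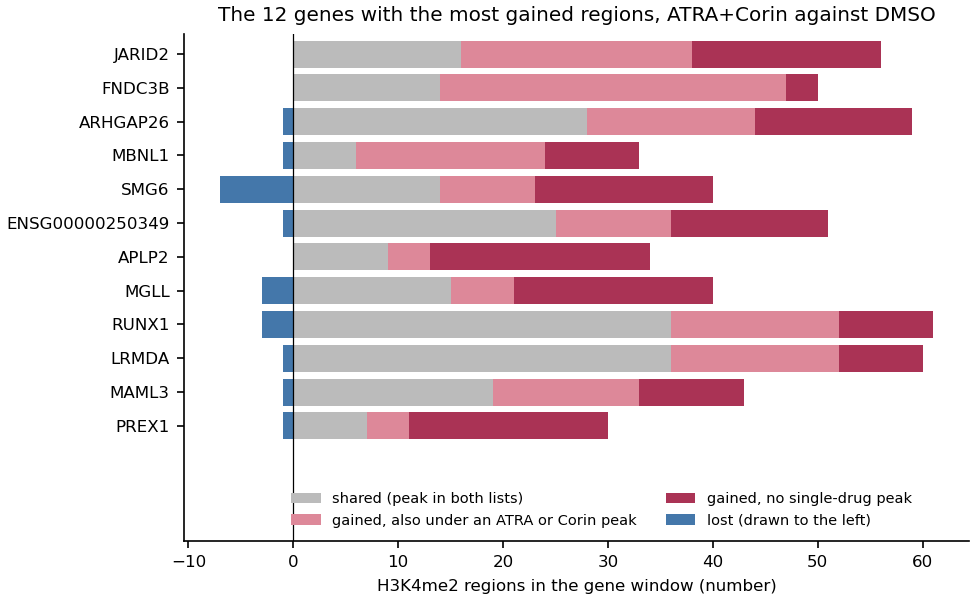
Number of H3K4me2 regions (x axis) in the windows of the 12 genes with the most gained regions (y axis), split into shared, gained under a single-drug peak, gained under none, and lost (left of 0). JARID2 had 40 gained regions on top of 16 shared, and in APLP2 and PREX1 most gained regions (21 of 25 and 19 of 23) had no single-drug peak.

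JARID2, a cofactor of the Polycomb complex PRC2, collected the most gained regions in the lists as deposited, 40 in a window of 281 kb that already held 16 DMSO regions, and lost none. At equal input depth it had 17, below LRMDA with 22, MAML3 with 21 and MBNL1 with 18, and with lists of equal length it had 12 against 16 for MBNL1. H3K4me2 peaks covered 21.6 kb of its window in DMSO, 33.0 kb with ATRA, 51.1 kb with Corin and 60.2 kb with the combination. Of the 40 gained regions 21 lay under a Corin peak, 5 under an ATRA peak and 18 under neither, and 9 were strong. The 16 shared regions had a median width ratio of 2.22. Gained regions began 7.08 kb downstream of the start and the last ended at 203 kb, with groups of them at 7.08 to 16.8 kb and at 183 to 203 kb.

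FNDC3B, a membrane protein gene studied in fat-cell differentiation, had 36 gained regions beside 14 shared, and 31 of the 36 lay under a Corin peak. Its covered length was 17.5 kb in DMSO, 22.6 kb with ATRA, 53.7 kb with Corin and 46.8 kb with the combination, so here Corin alone covered the most. MBNL1, a splicing regulator, had 27 gained regions beside 7 DMSO regions, 17 of them under a Corin peak and 3 under an ATRA peak. Its peaks covered 14.4, 17.1, 35.9 and 43.4 kb in the order DMSO, ATRA, Corin and combination. A run of 13 of its gained regions spanned 22.9 kb.

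APLP2, a relative of the amyloid precursor, differed in how few of its regions were seen with either drug alone. All 25 gained regions lay in a window of 79.9 kb, 31.3 per 100 kb, where all gene windows together held 1.38 per 100 kb, and 21 of the 25 had neither single-drug peak. Its covered length was 9.33 kb in DMSO, 16.7 kb with ATRA, 16.8 kb with Corin and 40.1 kb with the combination. PREX1, an exchange factor for Rac in leukocytes, had 23 gained regions, 19 of them with neither drug, and its strongest had a −log10 q of 54.8. MGLL, the monoacylglycerol lipase gene, had 25 gained and 3 lost regions, and 19 of the 25 had neither. SMG6, an endonuclease of nonsense-mediated decay, had 26 gained but also 7 lost regions, the most lost among these 12 genes. At equal input depth the counts were 15 for APLP2, 12 for PREX1, 11 for MGLL and 13 for SMG6, and FNDC3B had 17.

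RUNX1, the haematopoietic transcription factor, was among the most marked before treatment, with 39 DMSO regions, and collected 25 more while losing 3. Its covered length was 58.4 kb in DMSO, 71.0 kb with ATRA, 83.2 kb with Corin and 89.0 kb with the combination. ARHGAP26, a GTPase-activating protein gene, had 31 gained regions beside 29 DMSO regions, LRMDA 24 beside 37, and MAML3, a Notch coactivator gene, 24 beside 20. The gene listed as ENSG00000250349 on the X chromosome had 26, but its window of 1343 kb contains other genes, CYBB among them. RUNX1 and ARHGAP26 had 16 gained regions each at equal input depth, and ENSG00000250349 had 11. Covered length was greater with the combination than in DMSO in all 12 of these genes. The 12 were chosen for their many gained regions, so this follows largely from the choice.

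**Figure D2:**
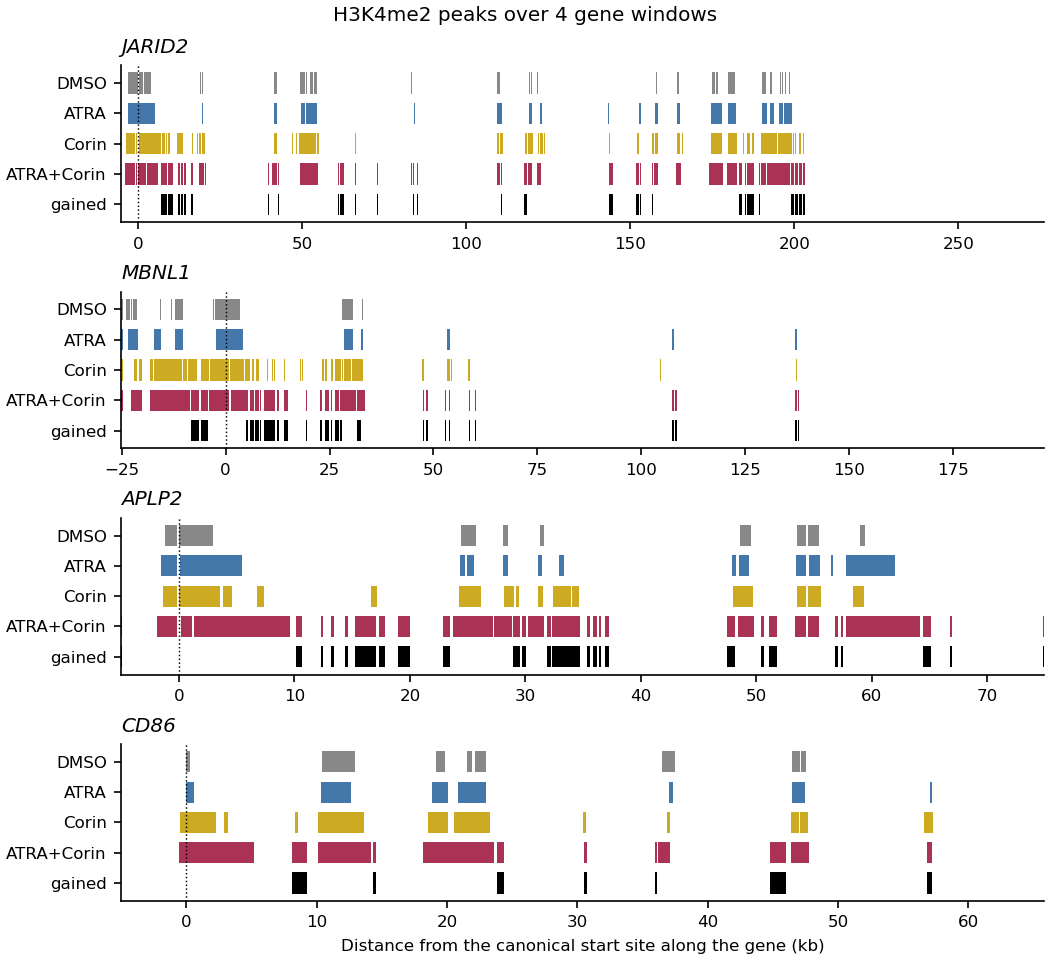
Peaks of the 4 lists and the gained regions (rows) over the windows of JARID2, MBNL1, APLP2 and CD86, by distance along the gene from the canonical start site (x axis, kb). In APLP2 the combination row fills much of the stretch from 10.1 to 37.2 kb, where the DMSO, ATRA and Corin rows have few peaks.

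Per length, the densest were mostly short genes. SCD, the stearoyl-CoA desaturase gene, had 9 gained regions beside a single shared region, and its covered length was 8.01 kb in DMSO, 8.65 kb with ATRA, 10.7 kb with Corin and 16.8 kb with the combination. MAPKAPK2, the stress kinase MK2, had 18 gained regions beside 6 shared, with 12.6 kb covered in DMSO and 31.7 kb in the combination, and 13 of the 18 had neither single-drug peak. PLEK, which encodes the platelet and leukocyte protein pleckstrin, had 12 beside 2, with 9.24 kb in DMSO, 15.6 kb with ATRA, 18.1 kb with Corin and 25.2 kb with the combination. A run of 14 gained regions over 20.3 kb in and beyond PLEK was the longest by count, and a run of 12 over 39.2 kb lay in AGFG1. FCER2, the low-affinity IgE receptor CD23, had 6 gained regions and 3.94 against 9.39 kb. RFC4, a clamp loader subunit, had 7, TRIM31, an E3 ligase gene, 5, and TPP1, a lysosomal peptidase gene, 4, none of the last strong. These counts became, at equal input depth, 8 for SCD, 10 for MAPKAPK2, 6 for PLEK, 3 for FCER2 and for RFC4, 2 for TRIM31 and 0 for TPP1. COMMD3 had 5 and BMI1, a subunit of Polycomb complex PRC1, 6 (4 and 2 at equal input depth), but BMI1 also had 3 lost regions, and the windows of COMMD3, BMI1 and their read-through COMMD3-BMI1 overlap and count the same regions.

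In 46 of the 19951 genes at least 3 regions were gained where DMSO had none in the window. Among the 15102 genes with a DMSO region, 2545 had at least 3. The genes named here were chosen after their values were seen. EMCN, an endothelial sialomucin gene, had 10, of which 8 were under neither single-drug peak. GUCY2F had 7 and SCN1A 5. The leukocyte genes that follow were picked and do not describe the 46 as a set. The neutrophil collagenase gene MMP8 had 5, and 3.07 kb of its window was covered with the combination, 0.468 kb with ATRA and 1.60 kb with Corin. VNN2, a leukocyte surface pantetheinase, had 5, with 3.70 kb covered in the combination, 2.48 kb with Corin and none with ATRA. FOLR3, a secreted folate receptor of neutrophils, had 4, all of them under an ATRA peak and 2 under a Corin peak. RORA, a nuclear receptor, had 6, of which 3 were under a Corin peak and none under an ATRA peak.

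Few genes collected lost regions. At least 3 were lost in 150 windows and at least 5 in 27. MAD1L1, a spindle checkpoint gene, had 12 lost regions and 6 gained, and its covered length was 47.7 kb in DMSO, 48.8 kb with ATRA, 43.1 kb with Corin and 44.1 kb with the combination. ENSG00000286192, with 13 lost, overlaps it and counts mostly the same regions. COL23A1, a transmembrane collagen gene, lost 11 and gained 4, and INPP5A, an inositol phosphatase gene, lost 9 and gained 4, with 24.5 kb covered in DMSO and 17.3 kb in the combination. PTPRN2 lost 8 but gained 9.

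Among the genes of the retinoid response, new regions were collected mainly by DHRS3, TGM2 and ASB2. At least 1 region was gained in 13 of 19 listed genes, with a median of 1, beside 8144 of 19951 protein-coding genes (40.8%) with a median of 0, and 7548 of the 15102 genes that had a DMSO region. The list's median window, 31.6 kb, was about that of all genes, 31.7 kb. Shared regions of the list had a median gene-wise width ratio of 1.44, against 1.21 for all genes. DHRS3, a retinal reductase gene, had 10 gained regions, and its covered length was 11.4 kb in DMSO, 16.8 kb with ATRA, 14.6 kb with Corin and 26.0 kb with the combination. TGM2, the tissue transglutaminase, had 9 gained and 1 lost, and all 9 had neither single-drug peak. ASB2, a ubiquitin ligase subunit gene, had 5. At equal input depth these genes had 3, 2 and 2 gained regions. In the lists as deposited, 2, 1 and 2 of their gained regions were strong. RARB, a retinoic acid receptor gene, had 2 gained regions and a single shared region that was 4.34 times as wide, with 0.980 kb covered in DMSO, 3.36 kb with ATRA, 1.22 kb with Corin and 5.06 kb with the combination. RXRA, a retinoid X receptor gene, had 2 lost regions and 1 gained, and CRABP2, a retinoic acid carrier gene, had 0.575 kb in DMSO and 0.341 kb in the combination.

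Among the genes of myeloid differentiation CD86, CYBB and SPI1 collected several regions. At least 1 region was gained in 16 of 25, with a median of 1 and a median width ratio of 1.46. For all genes the values were 40.8%, 0 and 1.21. The median window of the list was 16.1 kb against 31.7 kb. A DMSO region was present in 23 of the 25, and of the 15102 genes with one, 7548 had a gained region. CYBB, the catalytic subunit of the phagocyte oxidase, had 6 gained regions, its 4 shared regions were all at least 1.5 times as wide, and its covered length was 4.27 kb in DMSO, 11.1 kb with ATRA, 9.45 kb with Corin and 15.4 kb with the combination. CD86, a costimulatory ligand gene, had 7, with 6.74 kb in DMSO, 7.71 kb with ATRA, 13.4 kb with Corin and 21.6 kb with the combination. SPI1, which encodes PU.1, had 4, with 8.02, 8.52, 13.1 and 19.4 kb in the same order, and its strongest gained region had a −log10 q of 39.7. CYBB and CD86 had 3 gained regions each and SPI1 4 at equal input depth. ELANE, the neutrophil elastase gene, ran the other way with 0 gained and 3 lost regions, and 5.22 kb in DMSO against 4.43 kb. IRF8, a monocyte lineage factor gene, had 2 gained and 3 lost.

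Among the genes of CoREST and of the acetyltransferases p300 and CBP, RCOR1 and CREBBP collected the most regions. At least 1 was gained in 8 of 10, with a median of 1, beside 40.8% and a median of 0 for all genes. The list's median window of 73.8 kb was longer than that of all genes, 31.7 kb. All 10 had a DMSO region, and of the 15102 genes with one, 7548 had a gained region. RCOR1, which encodes the scaffold CoREST1, had 5, and CREBBP, the acetyltransferase CBP, 4 and 1 lost, and PHF21A, a reader of unmethylated lysine 4, 3, none of them strong. At equal input depth RCOR1 and CREBBP had 3 each and PHF21A 1. RCOR1 went from 7.67 kb in DMSO to 13.8 kb in the combination. Of the leukaemia stem and progenitor genes 8 of 10 had a gained region, again beside 40.8% of all genes. Their median was 1.5, their median window 39.0 kb and their median width ratio 1.10. All 10 of them also had a DMSO region, so the same 7548 of 15102 genes is the nearer background. MEIS1, a HOX cofactor gene, and MYB had 5 each, with 18.5 against 30.5 kb and 16.3 against 22.4 kb. At equal input depth MEIS1 had 4 and MYB 1, and none of the 5 at MYB was strong. HOXA9 had 10.7 kb in DMSO, 7.46 kb with Corin and 8.96 kb with the combination.

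Counts differed among the lists of other lineages. Of neuronal genes that REST represses 6 of 12 had a gained region, with a median of 0.5 and a width ratio of 1.15, beside 40.8% and 1.21 for all genes and 7548 of the 15102 genes with a DMSO region. KCNC1, a potassium channel gene, had both of its DMSO regions lost and 1 gained. Of erythroid and megakaryocytic genes 2 of 10 had a gained region, with a median of 0, and 4 of these 10 had a DMSO region. Of lymphoid genes 6 of 11 had 1 or more, with a median of 1, where EBF1 had 4 and LCK 3 (4 and 2 at equal input depth). No list was tested against another.

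**Figure D3:**
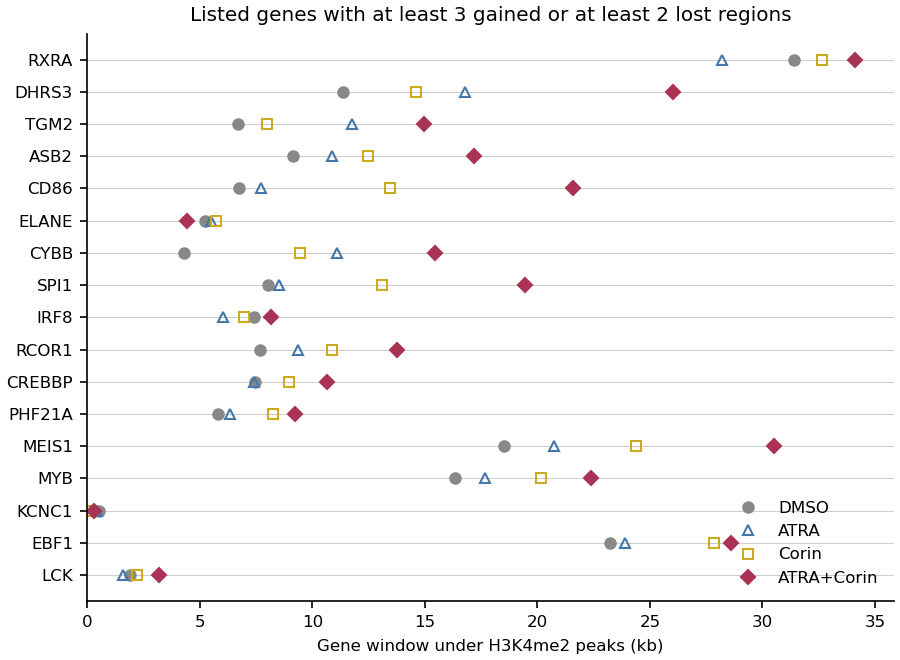
Length of the gene window under H3K4me2 peaks (x axis, kb) in each of the 4 lists, for the listed genes described here that had at least 3 gained or at least 2 lost regions (y axis). The combination marker is farthest right in most genes, such as CD86 at 21.6 kb, while for ELANE and KCNC1 it lies left of the DMSO marker. Genes with at least 3 gained regions were chosen for them, so a greater length with the combination follows largely from the choice.

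Most shared regions were wider with the combination. The median ratio of covered length was 1.25 (quartiles 1.05 and 1.65), with a median difference of 290 bp, and 81.8% of the 49517 regions were wider. At least 1.5 times the DMSO width was reached by 15588 regions (31.5%), whereas 1299 (2.62%) were at least 1.5 times as narrow. In total the shared regions covered 72.0 Mb in DMSO and 93.8 Mb in the combination. For ATRA alone the median ratio against the same DMSO list was 1.08, and for Corin alone 1.17, with 15.9% and 23.5% of regions at least 1.5 times as wide.

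Distal regions widened more in proportion than those at start sites. Within 1 kb of a start site the median ratio was 1.18, and 18.4% of 17609 regions (17.9 to 19.0%) were at least 1.5 times as wide, against 1.32 and 38.7% of 31908 (38.2 to 39.2%) farther away. In base pairs the order was the other way, with median differences of 332 and 270 bp. Intronic regions had the highest ratio by place, 1.37. Grouped by DMSO width, the narrowest of 5 groups had a median ratio of 1.91 and the widest 1.15. A region that is narrow in the list used for grouping tends to be wider in any other list. Grouped by the mean of both widths, the ratios were 1.31, 1.38, 1.26, 1.21 and 1.20 from narrowest to widest, a smaller range.

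**Figure D4:**
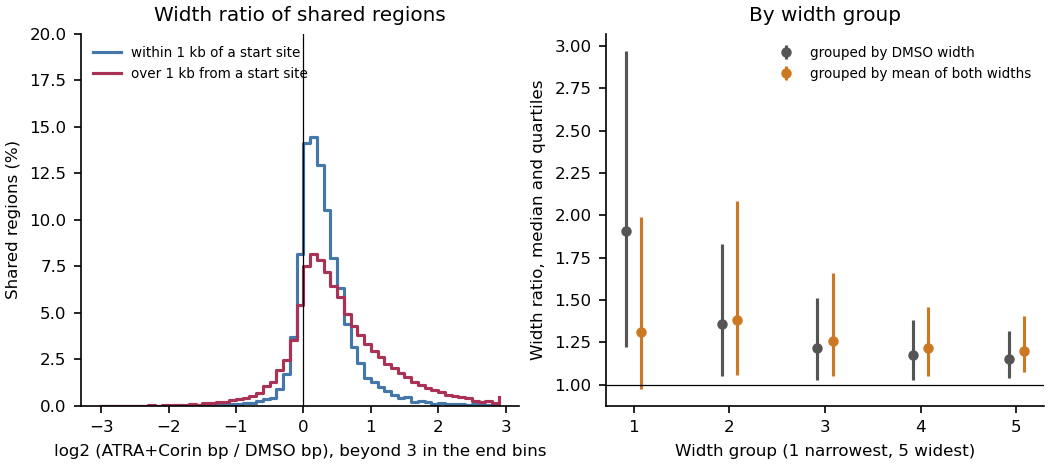
Left, share of shared regions (y axis, %) by log2 ratio of combination to DMSO width (x axis), for regions within and over 1 kb of a start site; right, median ratio with quartile bars in 5 width groups, formed by DMSO width or by the mean of both widths. Both curves lie mostly to the right of 0, and the narrowest group falls from a median of 1.91 to 1.31 when the mean width forms the groups.

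Over all regions, left and right edges had like median shifts outward, a measure that ignores the direction of genes. In the 37532 regions of 1 peak in each list, the median shift was 74 bp at the left edge and 76 bp at the right, and both edges lay outside those of DMSO in 52.4%. Peaks also fused. In 8100 shared regions (16.4%) several DMSO peaks lay under 1 combination peak, and in 2836 (5.73%) 1 DMSO peak was replaced by several combination peaks. The gaps were short, at medians of 173 bp in the fused and 150 bp in the divided regions. They differed in place, since an annotated coding start site lay in a gap of 36.1% of the divided regions (34.4 to 37.9%) and of 2.01% of the fused (1.73 to 2.34%).

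At start sites the widening ran mainly into the gene. In 5201 shared regions over 1 coding start site, with no start of an opposite gene within 5 kb, the downstream edge lay a median of 287 bp farther out and the upstream edge 76 bp. The downstream edge was at a median of 1722 bp from the start in DMSO and 2152 bp in the combination, and the upstream edge at 802 and 941 bp. At 2 kb downstream, 36.1% of these sites were under a DMSO peak, 39.4% under an ATRA peak, 55.5% under a Corin peak and 59.4% under a combination peak. At 2 kb upstream the shares were 9.94, 11.7, 15.6 and 18.5%. The start site itself was covered at 96.0% of the sites in DMSO, 91.5% with ATRA, 76.4% with Corin and 78.6% with the combination.

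**Figure D5:**
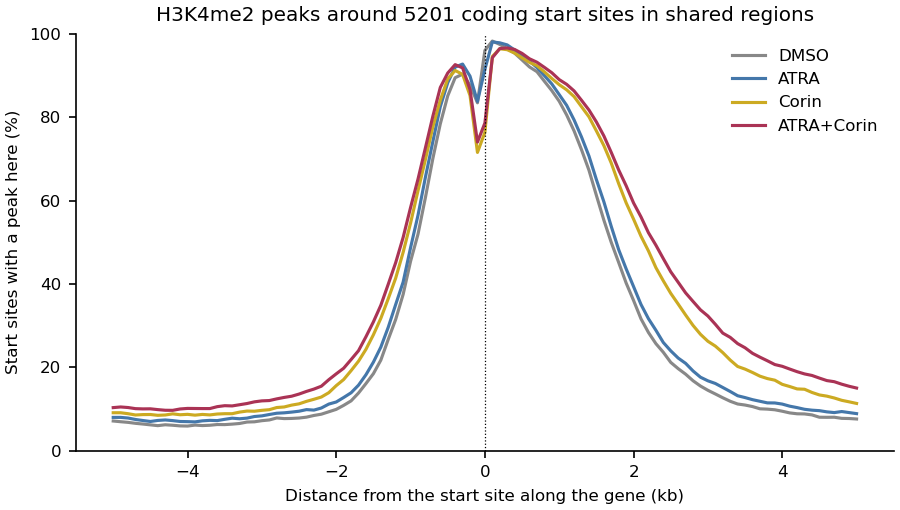
Share of 5201 coding start sites with a peak (y axis, %) by distance from the start along the gene (x axis, kb) in the 4 lists. Downstream of the start the combination and Corin curves lie above those of DMSO and ATRA (59.4 and 55.5% against 36.1 and 39.4% at 2 kb), while at the start itself they lie below.

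Start sites of some listed genes were also left uncovered. Of 97 genes in the fixed lists, 56 had their canonical start under a DMSO peak and 48 under a combination peak. The 10 covered in DMSO only were RARB, CRABP2, LYZ, CEBPA, RCOR1, RCOR3, HDAC1, HOXA9, MEIS1 and KIT, and the 2 covered in the combination only were TGM2 and HMG20B. Among all 19951 genes, 2382 of the 9433 starts covered in DMSO (25.3%) were not covered in the combination, beside 10 of 56 in the lists (17.9%), and 536 were covered in the combination only.

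The regions that lengthened most were found by their rank and not by function. Here and for the regions named below, lengths under ATRA and Corin count only bases inside the merged region. At KCNH4, a potassium channel gene, 806 bp in DMSO became 8844 bp in the combination, with 4624 bp under ATRA and 1318 bp under Corin. At PALLD, an actin-binding protein gene, 2334 bp became 9073 bp, and at TRIM14, an adaptor gene of innate immunity, 3409 bp became 9775 bp. RBM47, an RNA-binding protein gene, had 717 bp in DMSO, 1951 bp with ATRA, 5340 bp with Corin and 6826 bp with the combination at an intronic region. SIGLEC7, an inhibitory receptor gene of leukocytes, had 3512, 4314, 8083 and 9121 bp in the same order. Within APLP2, 372 bp became 6395 bp, of which 4212 bp were under an ATRA peak and 968 bp under a Corin peak.

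CEACAM1 and CD86 had short DMSO peaks at their starts and long combination peaks there. CEACAM1, a cell adhesion receptor gene, had 1074 bp in DMSO, 2620 bp with ATRA, 2047 bp with Corin and 7349 bp with the combination, and its −log10 q was 8.92 in DMSO and 191 in the combination. CD86 had 242 bp in DMSO, 555 bp with ATRA, 3030 bp with Corin and 5785 bp with the combination, with a −log10 q of 5.41 and 46.3. The 150 bases before each start are shown because both are poor in CpG, which capitals mark. They are RefSeq promoter sequence of GRCh38.p14, 5′ to 3′ along the gene, CD86 at chr3:122055212-122055361 on the plus strand and CEACAM1 at chr19:42528482-42528631 on the minus strand.
CD86 promoter: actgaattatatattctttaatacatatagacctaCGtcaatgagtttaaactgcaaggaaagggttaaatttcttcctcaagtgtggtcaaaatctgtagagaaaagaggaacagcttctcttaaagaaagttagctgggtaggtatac
CEACAM1 promoter: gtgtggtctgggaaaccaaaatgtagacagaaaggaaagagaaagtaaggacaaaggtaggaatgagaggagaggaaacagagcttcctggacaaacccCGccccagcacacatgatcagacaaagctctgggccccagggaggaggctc
Each stretch holds 1 CpG, where the median over 34961 RefSeq promoters is 7 in the same 150 bases. GC content is 34.0% for CD86 and 52.0% for CEACAM1.

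Narrowing was smaller and rarer. At PRTN3, the proteinase 3 gene beside ELANE, 7890 bp in DMSO became 5372 bp in the combination. ATRA peaks covered all 7890 bp of this merged region and Corin peaks 7126 bp. In SH3PXD2A, a podosome scaffold gene, 2973 bp became 1220 bp, with 2631 bp under ATRA and none under Corin. In an intron of LRP5, a WNT coreceptor gene, 2241 bp became 525 bp. Outside genes near UBAC1 3504 bp became 1821 bp, and near TMEM255B 4178 bp became 2630 bp.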

How the data were processed

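H3K4me2 was measured by ChIP-seq in U-937 cells after 24 hours with DMSO, ATRA, Corin or both. Per the submitters' processing notes, Trimmomatic, Bowtie2, Picard and MACS2 were used with the hg38 build; versions and settings are not given in the sources used here. The authors deposited 1 narrowPeak list per treatment, named as an optimal set of reproducible peaks against input. Its columns hold, as deposited, a score, a ratio (fold enrichment at the summit), a −log10 p-value, a −log10 q-value and the summit position. Among the first 30000 peak numbers, 17 are absent from the combination list and 18 from the DMSO list; they were not analysed here. Overlap meant at least 1 bp on 23 chromosomes (22 autosomes and X). Width was the length covered by each list's peaks, and wide or narrow meant 1.5-fold. At named regions, ATRA and Corin lengths count only bases inside the merged region of the DMSO and combination lists. Peaks of the single drugs may reach farther. Places and the 19951 protein-coding genes came from GENCODE release 44. Fragments per peak were solved from fold and p-value, a step tested on simulated data. Python 3.11.15 with pandas 2.3.3 was used, and intervals are Wilson 95% intervals. Members and lists were chosen with earlier results of these data known. Named genes were the 12 with the most gained regions, the 10 with the most per 100 kb among genes with at least 4, the 5 with the most lost, listed genes with at least 3 gained or 2 lost, regions by rank of −log10 q or width difference, and the 3 longest runs. A listed gene with at least 3 gained regions is not reported here. Replicates could not be separated, and no test was run.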

Additional observations from a re-analysis of the deposited data

How the results depend on the processing

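Each treatment has 1 list for its libraries together, so error between replicates is unknown and leaving out a replicate could not be run. No paired analysis was possible because the lists are not split by replicate. Merging touching peaks too gave 30316 gained and 4228 lost regions. When weak peaks (−log10 q under 5) were dropped from the lists, gained and lost regions numbered 18401 (30.2% of regions) and 2374 (3.90%), the median width ratio was 1.24, 29.7% of shared regions were wide and 1.73% narrow, and 1323 genes had at least 3 gained regions and 446 at least 5. With both lists at equal length the values in that order were 15018 (21.8%), 7140 (10.4%), 1.26, 31.6%, 1.93%, 1050 and 314. Merging peaks within 1 kb gave 16357 (27.9%), 2187 (3.73%), a ratio of 1.30, 36.3% wide and 2.94% narrow. The setting of equal input depth, which also asked for a −log10 p of at least 5, was added after seeing the data. It gave 20130 (29.8%), 3520 (5.21%), 30.8% wide and 1.98% narrow, and 1536 and 560 genes. Its kept peaks had their deposited edges, so its wide and narrow shares do not show widths at equal depth. Asking for a −log10 q of at least 5 only on the side with the peak gave 12450 (14.8%), 1033 (1.23%), and 784 and 215 genes. Widths as outer spans gave a ratio of 1.21 and 28.0% wide, and regions of 1 peak in each list 1.24, 32.3% and 3.15%. Genes with at least 3 and 5 gained regions numbered 5930 and 2311 within 50 kb of the start, and 4018 and 1878 by nearest start. Of the 12 genes with the most gained regions, 12 were among the first 50 with equal input depth or list length, 11 without weak peaks, 10 with strong gained peaks only, 8 by nearest start and 5 within 50 kb. Shares of gained regions with ATRA, Corin and neither peak were 56.7, 70.4 and 18.1% without weak combination and DMSO peaks. The ATRA and Corin lists were left whole there, and regions whose only DMSO peaks were weak counted as gained. When 50% of the region had to be covered, the shares were 19.9, 33.1 and 55.8%. Start sites within 2.5 kb took in 13.8% of gained regions. Of 11 motif shares, 6 moved beyond their interval in a 200 bp window.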
